A study of Mus musculus with 4 samples.

Results

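The genes of the smooth muscle contractile apparatus, its actin-binding proteins, its regulators and the cofactors of serum response factor were compared between 2 clonal mouse cell lines. The set held 44 genes, listed by symbol, and all 44 had a row among the 23358 gene rows measured. Of these, 42 were abundant enough to be tested, among 14496 tested genes in all, and Myocd and Ppp1r14a were not. Both lines are described by their labels as progenitors of interstitial cells of Cajal, which pace the contractions of the gut, and both were grown in a neural stem cell medium. The line 2xSCS70 came from the stomach muscle layers of H-2Kb-tsA58 mice, whose transgene encodes a T antigen of SV40 that is lost at raised temperature and driven by an interferon-responsive promoter, and it was kept at 39.5 °C without interferon gamma. The line 2xSCS2F10 came from the stomach muscle layers of C57BL/6J mice and was kept at 37 °C with 5% chick embryo extract. Each line is a single clone with 2 libraries of polyadenylated RNA, so that clone, mouse strain, transgene, temperature and medium cannot be told apart. Whether the paired libraries of a line stem from independent cultures is left unsaid by the labels, so p-values reflect the scatter of these libraries alone, possibly technical scatter.

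Smooth muscle shortens when myosin pulls on actin filaments. Calcium and calmodulin switch on myosin light chain kinase, which phosphorylates the regulatory light chain, and a phosphatase with its targeting subunit removes the phosphate. The kinases Rock1 and Rock2 and the inhibitor protein CPI-17 hold that phosphatase back. Many genes of the apparatus are switched on by serum response factor, SRF, which binds a short DNA sequence named the CArG box together with cofactors of the myocardin family. Myocardin itself is found in smooth and heart muscle, whereas its relatives, the myocardin-related transcription factors, are held by unpolymerised actin and are present in most cells.

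Libraries of 2xSCS70 held 44737008 to 48971264 counts in genes and those of 2xSCS2F10 40319972 to 45098902. Levels below are CPM, that is counts brought to a common library size by the TMM method, and differences are log2 fold changes of 2xSCS70 over 2xSCS2F10 from edgeR's quasi-likelihood test with Benjamini-Hochberg adjustment over all 14496 tested genes, with a threshold of 0.05. Where levels of different genes are compared or shared out, RPKM is used, which relates counts to gene length, while the summed CPM of a marker list serves only to compare libraries. The 2 libraries correlated across genes with a Pearson's r of 0.998 for 2xSCS70 and 0.982 for 2xSCS2F10, on log2(CPM + 1) and with genes not being independent. Of the markers that define interstitial cells of Cajal, Kit was at 0 and 0.0411 CPM in 2xSCS70 and at 0 in both 2xSCS2F10 libraries, under the floor of 3 fragments. In bulk RNA, fewer cells of a kind and less RNA per cell cannot be told apart.

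The contractile and actin-binding genes were mostly lower in 2xSCS70. Of the 42 tested genes, 26 were lower and 2 were higher, which is 61.9% and 4.76%. Among all tested genes 21.8% were lower and 18.8% higher, 40.6% in all. The median log2 fold change was -0.79, against 0.02 over all tested genes. The 2 libraries of 2xSCS70 lay below both libraries of 2xSCS2F10 for 29 of the 42 and above both for 5, where all tested genes gave 37.5% and 39.9%. Of the 26 lower genes, 18 differed by 2-fold or more, a size that 13.3% of all tested genes reached as lower. The 6 genes past 10-fold were Cnn1, Myl9, Myh11, Tagln, Actg2 and Sorbs2. The share of all tested genes past 10-fold was not counted, so this number has no background. The calls rested on the close agreement of the 2xSCS70 libraries: 6 genes passed as lower without 2xSCS70 replicate 1 and 6 without its replicate 2, when 3.86% and 3.95% of all genes did, and 0 passed as higher, when 2.01% and 2.18% of all genes did (at this step edgeR called 850 and 889 genes in all). The same 6 genes passed in both cases, namely Cnn1, Myl9, Tagln, Actg2, Tpm2 and Cav1. On log2(RPKM + 1) values tested with limma, 17 of the 42 were lower, against 12.6% of all tested genes. When a 2xSCS2F10 library was left out, more passed: 32 lower and 3 higher without replicate 1, against 33.1% and 32.9% of all genes, and 28 lower and 6 higher without replicate 2, against 31.6% and 30.2%.

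**Figure D1:**
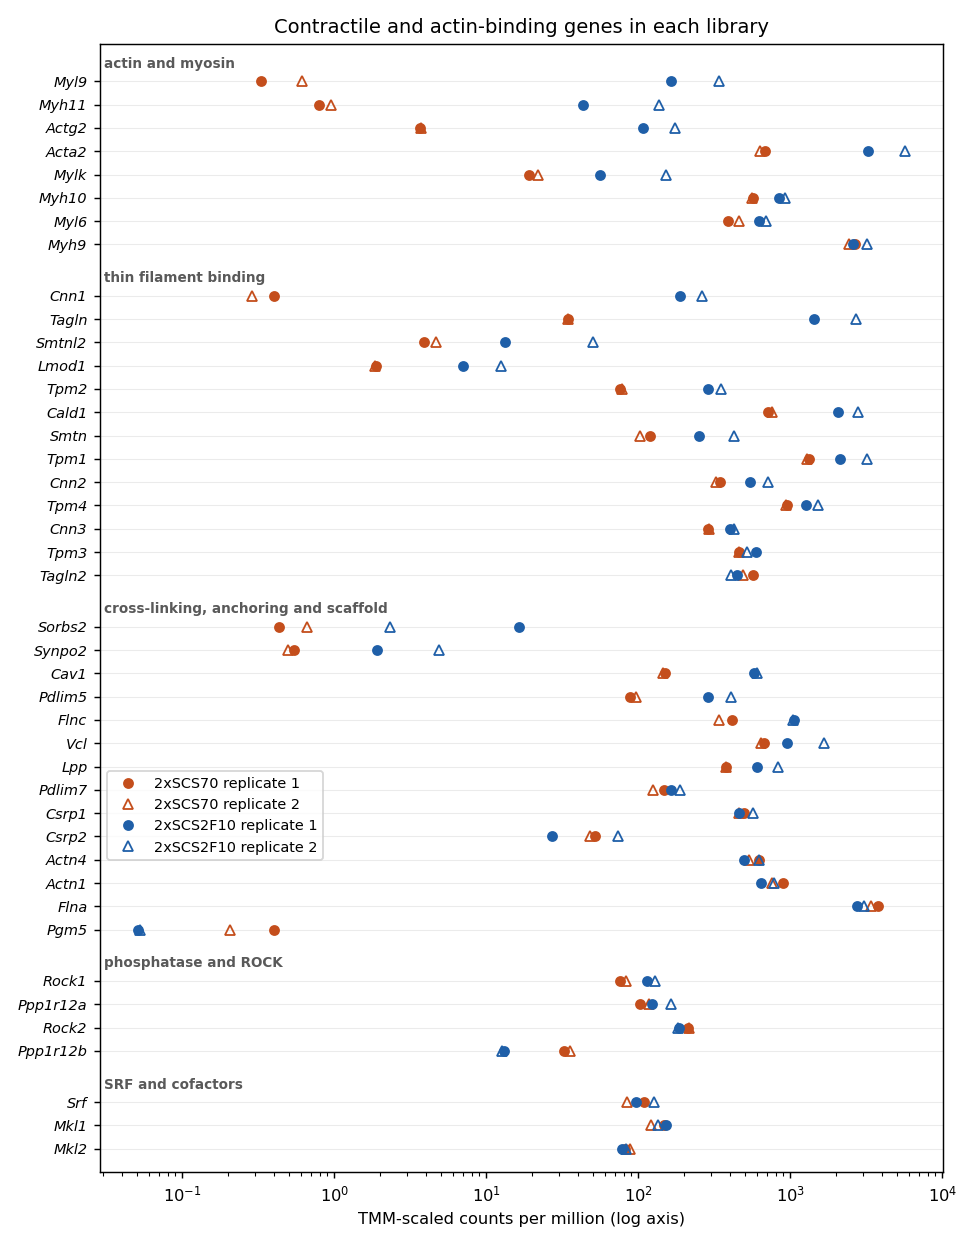
TMM-scaled CPM of the 42 tested genes (rows, grouped by role) in each library on a log axis, with 2xSCS70 in orange and 2xSCS2F10 in blue, filled circles for replicate 1 and open triangles for replicate 2. The lines stand apart for Myl9, Cnn1, Myh11, Tagln and Actg2 and overlap for Myh9, Actn4 and the SRF genes.

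SRF and its broadly expressed cofactors were at similar levels in both lines, and myocardin was not detected above background. Srf stood at 109 and 84.5 CPM in 2xSCS70, against 96.2 and 126 CPM in 2xSCS2F10 (log2 -0.20, SE 0.20, adjusted p = 0.464). Mkl1, a myocardin-related transcription factor, had 147 and 121 CPM in 2xSCS70, against 151 and 134 CPM in 2xSCS2F10 (log2 -0.09, SE 0.15, adjusted p = 0.645). Its relative Mkl2 had 81.8 and 88.6 CPM in 2xSCS70, against 78.1 and 83.2 CPM in 2xSCS2F10 (log2 0.08, SE 0.12, adjusted p = 0.617). For these 3 genes the libraries of the lines overlapped, and on log2(RPKM + 1) values the small differences of Srf and Mkl1 had the other sign (0.04 and 0.14). With each library left out in turn, the fold between the lines stayed between 1.01 and 1.31 for Srf, between 1.01 and 1.18 for Mkl1 and between 1.01 and 1.10 for Mkl2, and Srf passed as lower without 2xSCS2F10 replicate 1 (adjusted p = 0.00319). Myocd, on chromosome 11 from 65176571 to 65269989 (mm10), gave 1 and 0 fragments in 2xSCS70 and 0 and 1 fragments in 2xSCS2F10. All 4 values lie under a floor of 3 fragments, which corresponds to 0.109 and 0.123 CPM in 2xSCS70 and 0.154 and 0.157 CPM in 2xSCS2F10, so a difference in Myocd was not detectable at this depth. Such floors, like the intervals given below, cover counting error only.

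Promoter sequence from RefSeq (build GRCm38) was at hand for 38 of the 44 genes, in 52 windows of 300 bases, each from 250 bases before a transcription start to 50 after it. Actg2, Myh11, Tagln, Myocd, Csrp2 and Rock1 had no window. The CArG box reads the same way on both strands. A box with an unbroken A/T core occurred in 5 of the 52 windows (9.62%), against 1.63% of all 32851 windows of the table. The set holds Srf and an apparatus of which many genes are known to be switched on by SRF, so this higher share is not an independent result. Such a box was held by 4 of the 22 genes lower in 2xSCS70 that had a window, and by 1 of the 16 others with a window. A link between the box and the difference was not tested. The 5 windows belonged to Srf, Myl9, Vcl, Cnn2 and Myl6, of which the last 4 were lower in 2xSCS70 and Srf was not called. They are printed 5′ to 3′ on the strand of the gene because they hold the sequence that SRF is known to bind, with the box in capitals.
Srf, chr17:46556176-46556284, minus strand: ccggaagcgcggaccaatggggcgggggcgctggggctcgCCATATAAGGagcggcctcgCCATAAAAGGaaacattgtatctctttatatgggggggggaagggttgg
Myl9, chr2:156775263-156775352, plus strand: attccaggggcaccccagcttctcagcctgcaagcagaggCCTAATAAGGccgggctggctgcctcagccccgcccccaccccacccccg
Vcl, chr14:20929148-20929220, plus strand: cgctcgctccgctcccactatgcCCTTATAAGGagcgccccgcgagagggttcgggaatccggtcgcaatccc
Cnn2, chr10:79988504-79988583, plus strand: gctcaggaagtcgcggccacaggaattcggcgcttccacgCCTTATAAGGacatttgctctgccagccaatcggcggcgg
Myl6, chr10:128493046-128493099, minus strand: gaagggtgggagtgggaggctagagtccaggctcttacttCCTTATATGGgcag
The boxes of Srf began 82 and 62 bases before the start, and those of Myl9, Vcl, Cnn2 and Myl6 began 161, 227, 56 and 50 bases before it. For Myl6, 1 of 2 windows held the box, and that window belonged to a start inside the gene. The printed Myl6 stretch lies within the span of its row, 128490861 to 128493825. The Vcl and Cnn2 boxes are the same 10 letters. When at most 1 base of the A/T core was allowed to be C or G, 11 of the 52 windows (21.2%) held a box, against 9.98% of all windows. Acta2 then had a pair of boxes, each printed with 10 bases on either side. They began 84 and 34 bases before the RefSeq start, inside an exon of a GENCODE transcript that starts further upstream.
Acta2, chr19:34255438-34255467, minus strand: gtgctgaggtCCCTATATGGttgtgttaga
Acta2, chr19:34255388-34255417, minus strand: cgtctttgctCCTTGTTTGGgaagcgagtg
A match describes these windows and is not a measured binding site.

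Actin and myosin genes that mark smooth muscle were far lower in 2xSCS70, while the widely used non-muscle forms differed little. Acta2, vascular and visceral smooth muscle alpha actin (chromosome 19, 34241091 to 34255336), had 676 and 631 CPM in 2xSCS70, against 3255 and 5665 CPM in 2xSCS2F10. Both libraries of 2xSCS70 were lower than either of 2xSCS2F10, and the fold was 6.82 (log2 -2.77, SE 0.32, adjusted p = 0.00401). The call of Acta2 ended without 2xSCS70 replicate 1 (adjusted p = 0.0803) and without its replicate 2 (adjusted p = 0.0847). Actg2, the actin of enteric smooth muscle (chromosome 6, 83512909 to 83536251), had 3.66 and 3.74 CPM in 2xSCS70, against 108 and 175 CPM in 2xSCS2F10. It was 38.3-fold lower, without overlap (log2 -5.26, SE 0.30, adjusted p = 0.000721). Actins are nearly alike in coding sequence, and the sources used here do not say how reads that fit several of them were counted, so their single values are uncertain. Myh11, the heavy chain of smooth muscle myosin (chromosome 16, 14194527 to 14291408), had 22 and 23 fragments in 2xSCS70, against 846 and 2597 fragments in 2xSCS2F10. That was 0.798 and 0.945 CPM in 2xSCS70, against 43.5 and 136 CPM in 2xSCS2F10 (103-fold lower, log2 -6.69, SE 0.70, adjusted p = 0.00316). The Myh11 fold was 158 without 2xSCS2F10 replicate 1 and 50 without its replicate 2, and the adjusted p was 0.0562 and 0.0543 without 2xSCS70 replicates 1 and 2.

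The heavy chains of non-muscle myosin were abundant in both lines. Myh9 had 2655 and 2448 CPM in 2xSCS70, against 2571 and 3187 CPM in 2xSCS2F10, with overlapping libraries (log2 -0.17, SE 0.19, adjusted p = 0.502). Myh10 was 1.58-fold lower, at 564 and 556 CPM in 2xSCS70, against 841 and 927 CPM in 2xSCS2F10 (adjusted p = 0.0172). The light chains divided in the same way. Myl9, the regulatory light chain of smooth muscle whose promoter is printed above (chromosome 2, 156775464 to 156781657), had 0.327 and 0.616 CPM in 2xSCS70, from 9 and 15 fragments, against 165 and 339 CPM in 2xSCS2F10. It was 537-fold lower (log2 -9.07, SE 0.58, adjusted p = 0.000962), and 354-fold without 2xSCS2F10 replicate 2. Myl6, the essential light chain that muscle and non-muscle myosins share, had 389 and 459 CPM in 2xSCS70, against 619 and 692 CPM in 2xSCS2F10 (1.55-fold lower, adjusted p = 0.0274). Mylk, the kinase of the regulatory light chain, had 19.2 and 21.9 CPM in 2xSCS70, against 56.0 and 152 CPM in 2xSCS2F10 (5.08-fold lower, SE 0.49, adjusted p = 0.0193). The fold of Mylk was 2.73 without 2xSCS2F10 replicate 2. Calls of Myh10, Myl6 and Mylk ended when either 2xSCS70 library was left out (adjusted p between 0.134 and 0.277), and those of Myh10 and Myl6 also on log2(RPKM + 1) values (0.120 and 0.368). In this group of 8 genes, 7 were thus lower (87.5%, against 21.8% of all tested genes), 0 were higher (against 18.8%) and Myh9 was not called.

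**Figure D2:**
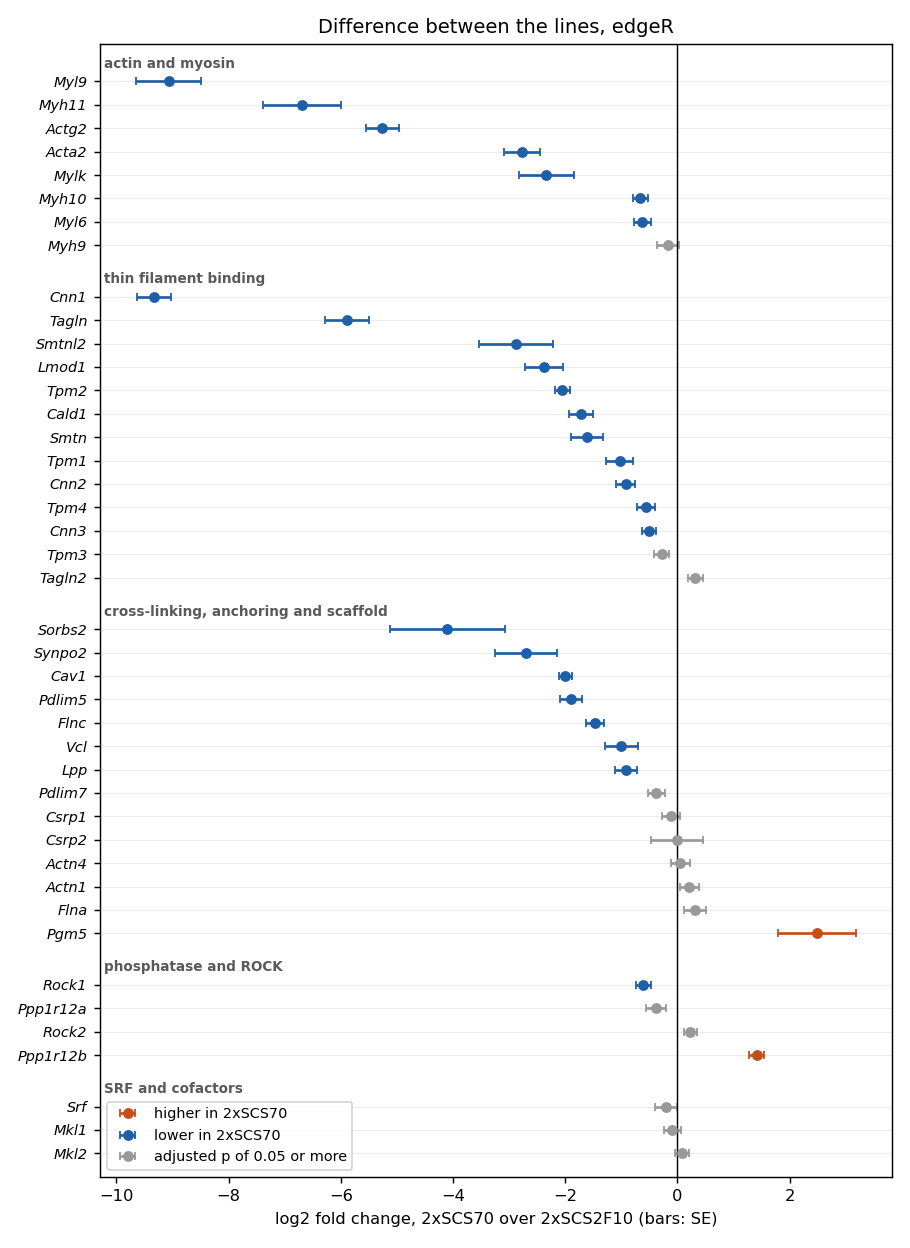
Log2 fold change of 2xSCS70 over 2xSCS2F10 with its SE (bars) for the 42 tested genes, grouped by role and ordered by size. Blue marks the 26 genes lower in 2xSCS70, orange the 2 higher ones, and grey the 14 that did not pass an adjusted p of 0.05 with edgeR.

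Proteins that bind along the thin filament showed the same division. Cnn1, basic calponin of differentiated smooth muscle (chromosome 9, 22099253 to 22109221), had 11 and 7 fragments in 2xSCS70, against 3664 and 4966 fragments in 2xSCS2F10. In CPM this was 0.399 and 0.288 in 2xSCS70, against 188 and 261 in 2xSCS2F10, a 644-fold lower level (log2 -9.33, SE 0.31, adjusted p = 0.000347). Its relatives Cnn2 and Cnn3, which many cell types express, were lower by much less. Cnn2 had 346 and 324 CPM in 2xSCS70, against 546 and 717 CPM in 2xSCS2F10 (1.89-fold, adjusted p = 0.0148). Cnn3 had 287 and 291 CPM in 2xSCS70, against 399 and 423 CPM in 2xSCS2F10 (1.42-fold, adjusted p = 0.024). Both calls ended on log2(RPKM + 1) values, with an adjusted p of 0.067 for Cnn2 and 0.327 for Cnn3, and on log2(RPKM + 0.1) values, with 0.0637 for Cnn2 and 0.346 for Cnn3.

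Tagln, the actin-binding protein SM22 alpha (chromosome 9, 45929628 to 45936058), had 34.6 CPM in each 2xSCS70 library, against 1425 and 2682 CPM in 2xSCS2F10 (59.3-fold lower, log2 -5.89, SE 0.39, adjusted p = 0.00103). GENCODE exons of Tagln share 108 bases with Pcsk7 on the other strand, which had 2392 and 1836 counts in 2xSCS70 and 988 and 1060 counts in 2xSCS2F10. Tagln itself had 1910 and 1686 counts in 2xSCS70, so reads of Pcsk7 could form part of the low Tagln level there, and their part was not tested. Tagln2, the transgelin of most other cells, had 567 and 491 CPM in 2xSCS70, against 446 and 405 CPM in 2xSCS2F10. Its 2xSCS70 libraries were both above those of 2xSCS2F10, but the difference did not pass the test (log2 0.32, SE 0.14, adjusted p = 0.132).

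Of the tropomyosins, which lie along actin filaments and set access of myosin, Tpm2 differed most. Tpm2 had 75.8 and 77.8 CPM in 2xSCS70, against 287 and 347 CPM in 2xSCS2F10 (4.13-fold lower, SE 0.14, adjusted p = 0.00117). Tpm1 was 2.04-fold lower, at 1318 and 1293 CPM in 2xSCS70, against 2135 and 3198 CPM in 2xSCS2F10 (adjusted p = 0.0259), a call that ended on log2(RPKM + 1) values (0.0916) and log2(RPKM + 0.1) values (0.0794). Tpm4 was 1.47-fold lower (adjusted p = 0.0442). Its call ended with the 5 CPM filter, upper quartile scaling and both RPKM scales, with adjusted p from 0.0573 to 0.398. Tpm3, at 458 and 456 CPM in 2xSCS70, against 595 and 518 CPM in 2xSCS2F10, was not called (log2 -0.28, adjusted p = 0.147). Each tropomyosin gene makes several isoforms by splicing, and gene counts do not separate these.

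Caldesmon, encoded by Cald1 and able to block myosin from actin, had 717 and 757 CPM in 2xSCS70, against 2066 and 2788 CPM in 2xSCS2F10 (3.29-fold lower, SE 0.21, adjusted p = 0.00431). Smoothelin, Smtn, had 120 and 103 CPM in 2xSCS70, against 252 and 425 CPM in 2xSCS2F10 (3.04-fold lower, adjusted p = 0.0113). The smoothelin-like gene Smtnl2 had 3.88 and 4.69 CPM in 2xSCS70, against 13.3 and 50 CPM in 2xSCS2F10 (7.38-fold lower, adjusted p = 0.0241). Its 2xSCS2F10 libraries lay far apart, and its fold was 11.8 without replicate 1 of that line and 3.10 without replicate 2. Lmod1, the leiomodin of smooth muscle that starts new actin filaments, was low throughout, at 1.89 and 1.85 CPM in 2xSCS70, against 7.04 and 12.4 CPM in 2xSCS2F10 (5.21-fold lower, adjusted p = 0.00723). Of the 13 thin filament genes, 11 were lower (84.6%, against 21.8% of all tested genes) and 0 higher (against 18.8%), and their median log2 fold change was -1.61. The calls of Cald1, Smtn, Smtnl2 and Lmod1 ended when either 2xSCS70 library was left out, with adjusted p between 0.0902 and 0.17.

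The cross-linking, anchoring and scaffold genes were divided. Of 14, 7 were lower (50%, against 21.8% of all tested genes), 1 was higher (7.14%, against 18.8%) and 6 were not called, and their median log2 fold change was -0.65. Cav1, the coat protein of caveolae (chromosome 6, 17306335 to 17341328), had 150 and 145 CPM in 2xSCS70, against 578 and 600 CPM in 2xSCS2F10 (3.99-fold lower, SE 0.12, adjusted p = 0.000806). The muscle filamin Flnc had 413 and 340 CPM in 2xSCS70, against 1053 and 1040 CPM in 2xSCS2F10 (2.78-fold lower, adjusted p = 0.00323). Cav1 and Flnc were the lower genes of this group whose 2xSCS2F10 libraries lay closest, with a ratio of replicate 2 to replicate 1 of 1.04 for Cav1 and 0.987 for Flnc. The filamin of most cells, Flna, had 3784 and 3402 CPM in 2xSCS70, against 2722 and 3069 CPM in 2xSCS2F10, without overlap but not past the test (log2 0.31, SE 0.19, adjusted p = 0.23).

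Pdlim5, a PDZ and LIM domain protein of actin bundles, was 3.73-fold lower, at 88.5 and 97.0 CPM in 2xSCS70, against 286 and 405 CPM in 2xSCS2F10 (adjusted p = 0.00331). The LIM protein Lpp, of focal adhesions, had 377 and 379 CPM in 2xSCS70, against 604 and 829 CPM in 2xSCS2F10 (1.90-fold lower, adjusted p = 0.0179). Vinculin, Vcl, which links adhesions to actin and whose promoter is printed above, had 670 and 645 CPM in 2xSCS70, against 951 and 1676 CPM in 2xSCS2F10 (2.00-fold lower, adjusted p = 0.0476). The Vcl call ended with upper quartile scaling (adjusted p = 0.0572), with the 5 CPM filter (0.0604), on both RPKM scales (0.0829 and 0.0744) and without either 2xSCS70 library (0.245 and 0.267). Of its exons, 2090 of 5402 bases are shared with Ap3m1 on the other strand, which had 3906 and 3520 counts in 2xSCS70 and 4724 and 3442 counts in 2xSCS2F10. Vcl had 31404 to 36960 counts in 2xSCS70 and 37014 to 63858 counts in 2xSCS2F10.

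Lower too, but at low levels, were a pair of anchoring genes. Synpo2, a Z-line and dense body protein, had 0.544 and 0.493 CPM in 2xSCS70, against 1.90 and 4.88 CPM in 2xSCS2F10 (6.50-fold lower, adjusted p = 0.0179). The fold of Synpo2 was 9.44 without 2xSCS2F10 replicate 1 and 3.65 without its replicate 2. Sorbs2, an adaptor of actin and vinculin, had 0.435 and 0.658 CPM in 2xSCS70, against 16.5 and 2.31 CPM in 2xSCS2F10 (17.2-fold lower, SE 1.03, adjusted p = 0.0311). The fold of Sorbs2 was 4.28 without 2xSCS2F10 replicate 1 and 30.4 without its replicate 2, and its call ended on log2(RPKM + 1) values (adjusted p = 0.133) and log2(RPKM + 0.1) values (0.0517). Of the anchoring group, Cav1 passed without either 2xSCS70 library (adjusted p 0.0399 and 0.0403), while the other 6 lower genes did not (adjusted p from 0.0598 to 0.267).

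The alpha-actinins, which cross-link actin filaments, overlapped between the lines. Actn1 had 898 and 752 CPM in 2xSCS70, against 642 and 781 CPM in 2xSCS2F10 (adjusted p = 0.365), and Actn4 had 619 and 534 CPM in 2xSCS70, against 498 and 619 CPM in 2xSCS2F10 (adjusted p = 0.839). The LIM proteins Csrp1 (log2 -0.11, adjusted p = 0.587) and Pdlim7 (log2 -0.38, adjusted p = 0.0984) did not pass either. Csrp2, the LIM protein of smooth muscle, had 51.6 and 47.8 CPM in 2xSCS70, against 27.0 and 73.4 CPM in 2xSCS2F10 (log2 -0.01, SE 0.46, adjusted p = 0.982). The libraries of 2xSCS70 lay between those of 2xSCS2F10, so that Csrp2 passed as lower without 2xSCS2F10 replicate 1 (1.49-fold, adjusted p = 2.14e-05) and as higher without its replicate 2 (1.84-fold, adjusted p = 4.11e-08). Pgm5, a phosphoglucomutase relative found at muscle adhesions, passed as higher from very few reads. It had 11 and 5 fragments in 2xSCS70, against 1 and 1 in 2xSCS2F10, a ratio of 5.94 with an exact 95% interval of 1.40 to 53.2 (edgeR adjusted p = 0.0429). Pgm5 did not pass with DESeq2 (0.148), which left Ppp1r12b as the 1 higher gene where 19.7% of all genes were higher, or without a filter (0.0842).

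The genes that set the phosphorylation of the light chain moved in both directions. Ppp1r12b, a targeting subunit of the myosin phosphatase known from striated muscle, was higher, with 32.5 and 35.5 CPM in 2xSCS70, against 13.0 and 12.6 CPM in 2xSCS2F10 (2.65-fold, log2 1.41, SE 0.14, adjusted p = 0.00255). Its call ended without 2xSCS70 replicate 1 (adjusted p = 0.0555) and without its replicate 2 (adjusted p = 0.0623), at folds of 2.77 and 2.53. The smooth muscle targeting subunit Ppp1r12a had 103 and 117 CPM in 2xSCS70, against 122 and 165 CPM in 2xSCS2F10 (log2 -0.38, adjusted p = 0.156). Of the kinases that hold the phosphatase back, Rock1 was 1.52-fold lower, with 75.9 and 82.6 CPM in 2xSCS70, against 114 and 128 CPM in 2xSCS2F10 (adjusted p = 0.0191). That call ended on log2(RPKM + 1) values (0.157) and without either 2xSCS70 library (0.201 and 0.151). Rock2 had 212 and 216 CPM in 2xSCS70, against 184 and 182 CPM in 2xSCS2F10 (log2 0.23, adjusted p = 0.152). Ppp1r14a, which encodes CPI-17, had 0 fragments in all 4 libraries, under the floor of 3 fragments.

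Within gene families, the shares of single genes differed between the lines, measured per length as a share of the RPKM of the family. Acta2 and Actg2 together made up 13.3% and 12.0% of actin RPKM in 2xSCS70, against 39.3% and 47.5% in 2xSCS2F10. In 2xSCS70 the cytoplasmic actins Actb (42.0% and 47.0%) and Actg1 (44.6% and 41.0%) held most of the rest, as Actb (21.5% and 20.1%) and Actg1 (39.2% and 32.3%) did in 2xSCS2F10. Actb itself was not called (log2 0.09, SE 0.22, adjusted p = 0.749), and Actg1 was 1.66-fold lower (adjusted p = 0.0335). Myh11 was a minor form in both lines, at 0.0278% and 0.0353% of myosin heavy chain RPKM in 2xSCS70, against 1.41% and 3.59% in 2xSCS2F10. Myh9 held 83.2% and 82.2% in 2xSCS70 and 75.2% and 75.6% in 2xSCS2F10.

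The transgelins exchanged rank. Tagln made up 5.06% and 5.79% of transgelin RPKM in 2xSCS70, against 73.6% and 85.2% in 2xSCS2F10, and Tagln2 made up 94.9% and 94.2% in 2xSCS70, against 26.4% and 14.8% in 2xSCS2F10. Cnn1 was 0.0595% and 0.0443% of calponin RPKM in 2xSCS70, against 15.8% and 17.6% in 2xSCS2F10. In each library of both lines Cnn2 was the leading calponin, at 57.5% and 55.6% in 2xSCS70 and 51.0% and 54.0% in 2xSCS2F10. Tpm2 made up 3.39% and 3.51% of tropomyosin RPKM in 2xSCS70, against 8.46% and 8.01% in 2xSCS2F10. Flnc made up 6.47% and 5.89% of filamin RPKM in 2xSCS70, against 20.7% and 18.1% in 2xSCS2F10. For the shares of Acta2 with Actg2, Myh11, Tagln, Cnn1, Tpm2 and Flnc, both libraries of 2xSCS70 lay below both of 2xSCS2F10. Flna went the other way, at 65.1% and 64.7% of filamin RPKM in 2xSCS70, against 58.8% and 58.6% in 2xSCS2F10. With 2 libraries per line no test was run on shares.

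**Figure D3:**
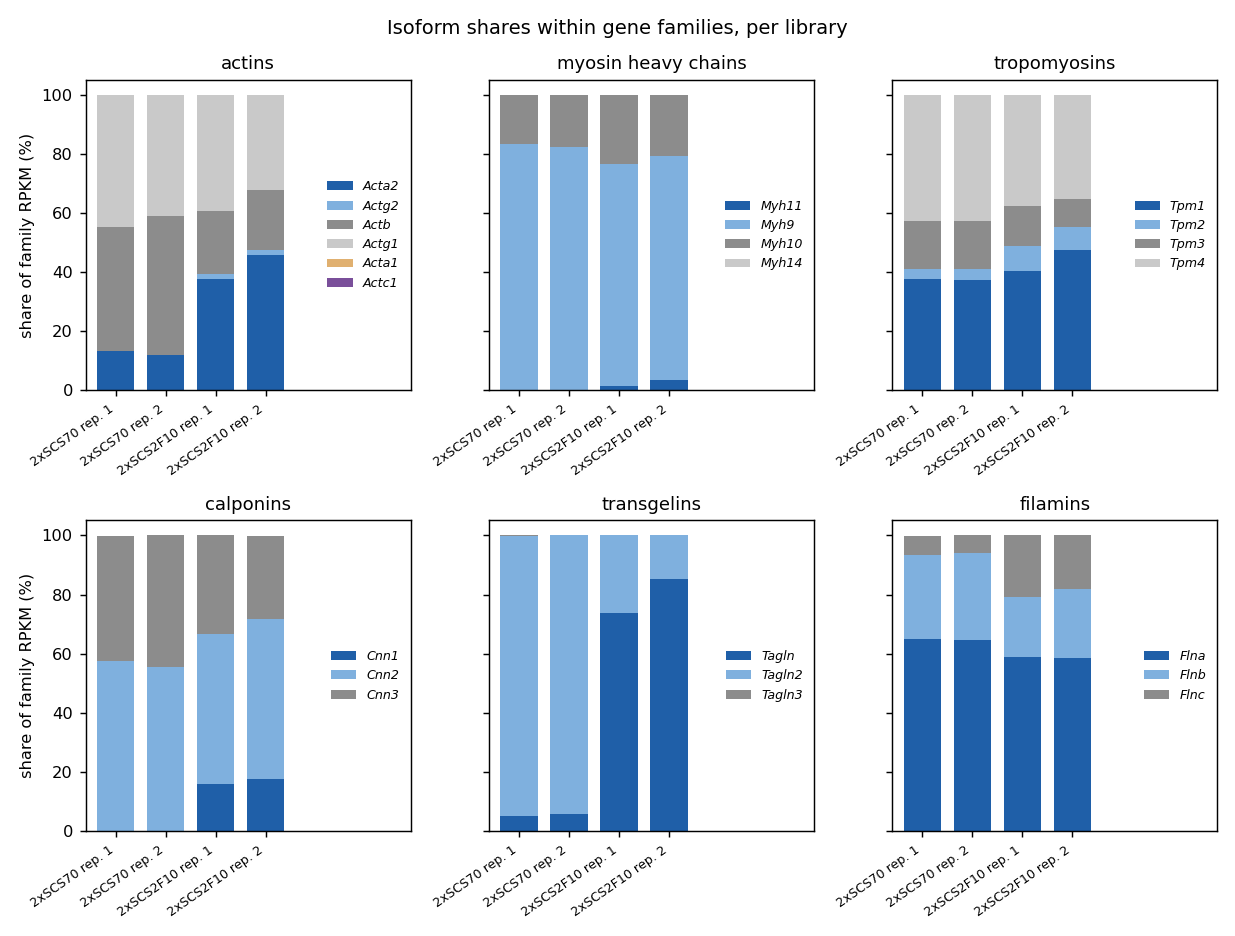
Share of each gene in the summed RPKM of its family (percent, stacked to the whole) for 6 families, with the 2 libraries of 2xSCS70 on the left and the 2 of 2xSCS2F10 on the right of each panel. Tagln fills 5.06% and 5.79% of its panel in 2xSCS70, against 73.6% and 85.2% in 2xSCS2F10.

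Between the 2 libraries of 2xSCS2F10, replicate 2 was mostly the higher for the genes of the set on TMM-scaled CPM. Replicate 2 was above replicate 1 for 35 of the 42 tested genes, against 49.8% of all tested genes, with a median log2 difference of 0.31, against 0.00 over all tested genes. The scale matters for that count, which was 27 of 42 on CPM by total count and 26 of 42 on deposited RPKM, with medians of 0.12 and 0.06 where all tested genes had -0.19 and -0.25. The shares of all tested genes above replicate 1 on those 2 scales were not counted. In 2xSCS70, replicate 2 was above replicate 1 for 17 of the 42, against 48.4% of all tested genes, with a median of -0.02. With 1 library on each side the comparison has no replicate check, and the intervals below cover counting error only. Genes past 2-fold in 2xSCS2F10 numbered 6 as higher and 1 as lower, against 6.51% and 6.82% of all tested genes. In 2xSCS70 they numbered 0 and 0, against 2.44% and 1.63%.

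The 6 genes above 2-fold in 2xSCS2F10 were Smtnl2, Myh11, Mylk, Csrp2, Synpo2 and Myl9. The ratio of replicate 2 to replicate 1 was 3.77 for Smtnl2 (exact 95% interval 3.28 to 4.34) and 3.14 for Myh11 (2.90 to 3.39). It was 2.72 for both Mylk (2.54 to 2.92) and Csrp2 (2.45 to 3.01), 2.57 for Synpo2 (1.74 to 3.87) and 2.06 for Myl9 (1.97 to 2.15). Tagln (1.88), Lmod1 (1.77), Vcl (1.76), Acta2 (1.74), Smtn (1.69), Actg2 (1.62) and Tpm1 (1.5) followed. The exception was Sorbs2, with 321 fragments in replicate 1 and 44 in replicate 2, a ratio of 0.14 (0.0998 to 0.192). On TMM-scaled CPM, replicate 2 of 2xSCS2F10 was the higher for 24 of the 26 genes lower in 2xSCS70, against 49.8% of all tested genes. The others were Sorbs2 and Flnc (0.987, 0.968 to 1.01). On deposited RPKM, replicate 2 of 2xSCS2F10 was also below replicate 1 for Myh10, Cnn3, Myl6, Cav1 and Rock1.

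**Figure D4:**
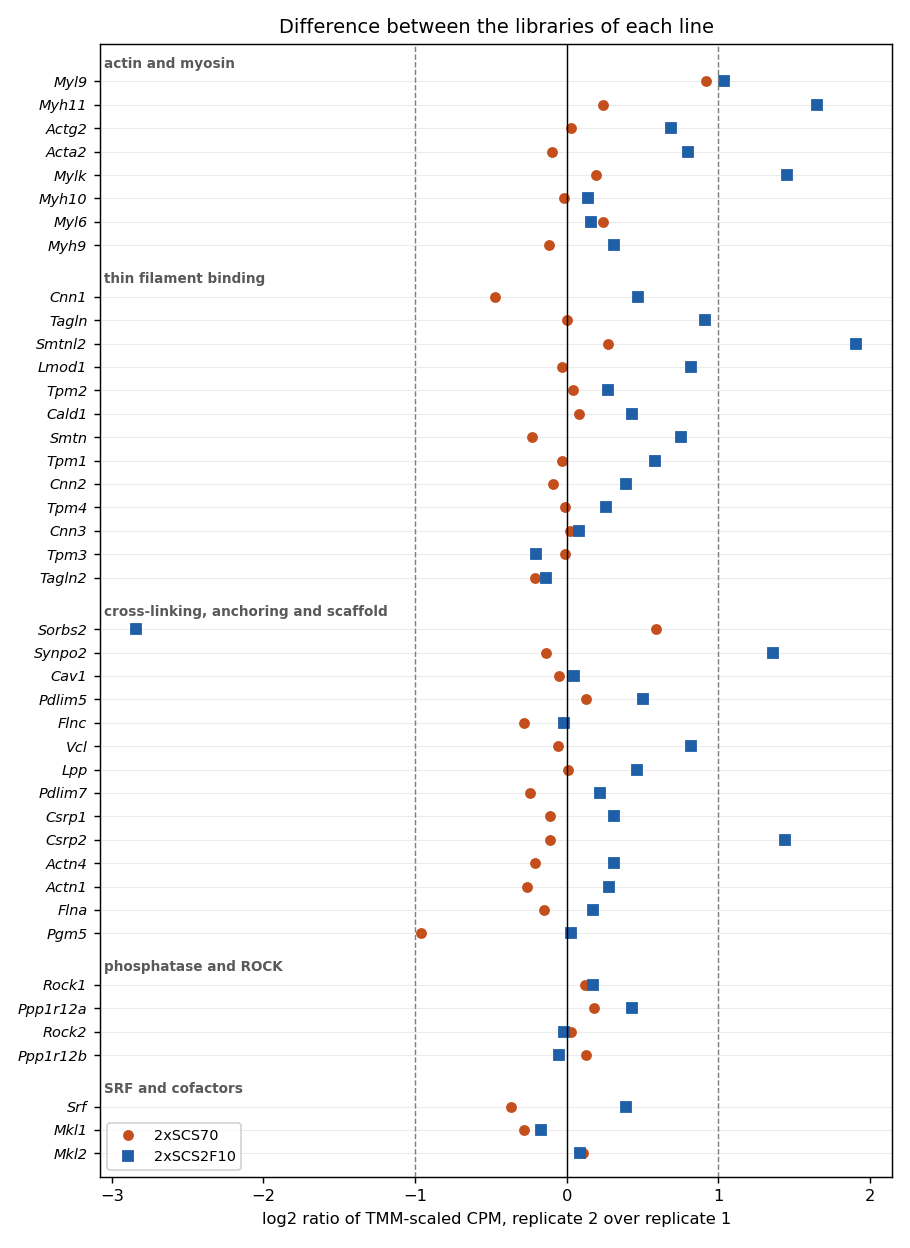
Log2 ratio of TMM-scaled CPM of replicate 2 over replicate 1 for the 42 tested genes, with 2xSCS70 as orange circles and 2xSCS2F10 as blue squares, and dashed lines at 2-fold. In 2xSCS2F10 6 genes lie right of the upper dashed line and Sorbs2 far left of the lower one, while in 2xSCS70 all lie between the lines.

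Of 22 other smooth muscle genes, which are not among the 44 of the set, 19 were tested. Of these, 10 were lower (52.6%, against 21.8% of all tested genes) and 4 higher (21.1%, against 18.8%), and the median log2 fold change was -0.77. The matrix protein nephronectin, Npnt, was 37.9-fold lower, at 3.16 and 2.88 CPM in 2xSCS70, against 132 and 97.1 CPM in 2xSCS2F10 (adjusted p = 0.000474). Pde5a, which breaks down cyclic GMP, was 32.5-fold lower (1.23 and 1.40 CPM in 2xSCS70, against 34.9 and 50.6 CPM in 2xSCS2F10, adjusted p = 0.000648), and the RNA-binding protein Rbpms was 4.42-fold lower (adjusted p = 0.00102). The intermediate filament protein synemin, Synm, was 7.25-fold higher, at 15.3 and 17.1 CPM in 2xSCS70, against 2.36 and 2.10 CPM in 2xSCS2F10 (adjusted p = 0.00116). Desmin, Des, the intermediate filament of muscle, was low in both lines, at 4.17 and 3.53 CPM in 2xSCS70 and 2.98 and 5.67 CPM in 2xSCS2F10 (adjusted p = 0.74).

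Relatives of the 44 genes and genes of adhesions and signalling gave smaller counts. Of 22 tested relatives, 10 were lower (45.5%, against 21.8% of all tested genes) and 0 higher (against 18.8%) by edgeR, where DESeq2 called 11 lower and 1 higher. They included Pdlim1 (4.47-fold, adjusted p = 0.00132), the light chain kinase relative Mylk3 (13.1-fold, at 0.109 and 0.164 CPM in 2xSCS70, against 1.95 and 1.68 CPM in 2xSCS2F10, adjusted p = 0.00377) and synaptopodin Synpo (7.67-fold, adjusted p = 0.00445). Of 16 focal adhesion and actin filament genes, 5 were lower (31.2%, against 21.8% of all tested genes) and 1 was higher (6.25%, against 18.8%). Lims2, a partner of integrin-linked kinase, was 41.8-fold lower (adjusted p = 0.00309), zyxin Zyx 2.96-fold (adjusted p = 0.00489) and kindlin Fermt2 1.61-fold (adjusted p = 0.0174). Enah, which protects growing actin ends, was 3.08-fold higher, at 362 and 340 CPM in 2xSCS70, against 105 and 123 CPM in 2xSCS2F10 (adjusted p = 0.00178).

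Of 15 tested contraction signalling genes, 3 were lower and 2 higher, near the 21.8% and 18.8% of all tested genes. The small GTPase Rnd3 was 2.44-fold lower (adjusted p = 0.00309) and Calm2 1.39-fold lower (adjusted p = 0.0362), while the small GTPase Rhoa was 1.47-fold higher (adjusted p = 0.0178). Of 8 tested SRF partners and repressors, 3 were lower (37.5%, against 21.8% of all tested genes) and 2 higher (25%, against 18.8%), counts too small to set the list apart from all genes. Elk1, a ternary complex factor that competes with myocardin relatives for SRF, was 2.01-fold higher, at 51.9 and 47.5 CPM in 2xSCS70, against 22.9 and 26.7 CPM in 2xSCS2F10 (adjusted p = 0.00697). Gata6 was 4.03-fold lower (adjusted p = 0.001), Klf5 2.11-fold lower (adjusted p = 0.011) and Hexim1 1.70-fold higher (adjusted p = 0.0214). Leaving out either 2xSCS70 library reduced the number of lower genes among the other smooth muscle genes, the relatives, the focal adhesion genes, the signalling genes and the SRF partners. It did so over all tested genes as well, so the drop was not particular to these lists.

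Mesothelial markers differed in the same direction as the contractile genes, and some pericyte markers and the heart muscle gene Tnnt2 in the other. All 9 mesothelial markers were lower in 2xSCS70 (100%, against 21.8% of all tested genes). Their summed level was 121 to 134 CPM in 2xSCS70, against 4030 to 4766 CPM in 2xSCS2F10, and none was at 0. Upk3b stood at 5.51 and 3.70 CPM in 2xSCS70, against 1205 and 1223 CPM in 2xSCS2F10 (edgeR adjusted p = 0.000347). Between the libraries of 2xSCS2F10 the mesothelial markers went both ways, with log2 differences of replicate 2 over replicate 1 from -1.72 for Krt19 to 1.0 for Krt7 and a median of 0.08. Of 5 tested pericyte markers, 3 were higher (60%, against 18.8% of all tested genes) and 0 lower (against 21.8%), and Kcnj8 was at 0 in 2xSCS70. The pericyte markers summed to 161 to 163 CPM in 2xSCS70, against 30.6 to 42.1 CPM in 2xSCS2F10. Most of both sums was Pdgfrb, at 152 and 150 CPM in 2xSCS70, against 29.4 and 38.2 CPM in 2xSCS2F10. Cspg4 and Abcc9 were not called. Of 9 markers of skeletal and heart muscle, 5 were at 0 in 2xSCS70 and 6 in 2xSCS2F10, Myod1, Myog and Myf5 among them. Their summed level was 118 to 123 CPM in 2xSCS70, against 6.68 to 8.35 CPM in 2xSCS2F10, and most of both sums was Tnnt2. Tnnt2 was 23.5-fold higher, at 120 and 113 CPM in 2xSCS70, against 4.67 and 5.25 CPM in 2xSCS2F10 (edgeR adjusted p = 0.000347). Ttn was not called (edgeR adjusted p = 0.379). The part of these other markers in the contractile difference was not tested.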

How the data were processed

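Polyadenylated RNA of 4 libraries, 2 from each of 2 clonal lines, was sequenced. The authors deposited a whole-number count and an RPKM value per gene and library, per the file headers, on build mm10, made with TopHat2 2.0.6, Bowtie and HTSeq, per the submitters' processing notes. Every count was even, which was read as 2 counts per fragment. The filter and the tests took the counts as deposited, so each fragment entered as 2 counts, while the floor and the exact intervals use fragments. No alternative halved the counts, so the effect on p-values, including those of low genes such as Pgm5, was not tested. The deposited RPKM values relate counts to a gene length and to a total that is larger than the counts in genes. The kit named in the labels does not mark strand, so genes that overlap on opposite strands cannot be told apart.

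Counts were tested with edgeR 4.0.16 (R 4.3.3, quasi-likelihood test, TMM scaling, filterByExpr) over all 4 libraries, with Benjamini-Hochberg adjustment over the 14496 genes kept, and with Myocd and Ppp1r14a left out by that filter. The common coefficient of biological variation was 20.4%. SE values are on the log2 scale. Alternatives were DESeq2 1.42.0, limma 3.58.1 on log2(RPKM + 1) and log2(RPKM + 0.1), scaling by RLE or by upper quartile, a filter of none or of a mean of at least 5 CPM, replicate number as a block, and each library left out in turn. Shares within gene families used RPKM. Ratios of 2 libraries have exact 95% intervals, and the floor was 3 fragments. Promoter windows came from RefSeq (GRCm38, which is mm10) and exon overlaps from GENCODE. The script was tested on simulated counts. Named are all members of the set, from each list of related genes (other smooth muscle genes, relatives, focal adhesion, contraction signalling, SRF partners) up to 4 called genes with the smallest adjusted p, and Actb and Actg1. Of the genes this rule names, 2 are not reported here. Des, the single cell type markers and the muscle factors at 0 were picked after their values were seen. The set and the lists were chosen with earlier results of these data known.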

Additional observations from a re-analysis of the deposited data

How the results depend on the processing

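The median of the contractile set stayed below 0 under all 12 alternatives, but its counts depended on the libraries and scale. With each library left out in turn, between 6 and 32 of the 42 genes were lower and between 0 and 6 higher, and over all genes between 559 and 4795 were lower and between 291 and 4772 higher. On log2(RPKM + 1) and log2(RPKM + 0.1) values 17 genes of the set were lower in both cases, with 1828 and 1964 lower genes in all. Among all calls 63.8% and 63.2% were then higher, against 2727 higher and 3161 lower genes on counts, and the median of all genes moved to 0.15 and 0.25, against 0.02. With upper quartile scaling that median was 0.11 and 52.6% of calls were higher. Only 1 gene of the set was higher with DESeq2, on both RPKM scales, with the 5 CPM filter, without a filter and with the replicate block. The cause was not tested. Replicate numbers do not pair the libraries by the labels, and deviations of same-numbered libraries correlated at 0.0539. The replicate block gave 24 lower genes and 1 higher gene in the set, where 19.6% of all tested genes were lower and 16.4% higher, and Cnn3 (adjusted p = 0.054), Tpm4 (0.0769) and Pgm5 (0.0764) lost their calls. Computed on counts in place of RPKM, the share of Tpm2 was 2.76% in 2xSCS70 and 6.46% in 2xSCS2F10, and that of Tagln 6.17% in 2xSCS70.

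Log2 fold changes near 0 changed sign. Myh9 was 0.07 on both RPKM scales, where Mkl1 was 0.14, Srf 0.04 and Csrp1 0.13. Csrp2 was 0.39 on log2(RPKM + 0.1), 0.38 on log2(RPKM + 1), 0.02 with the 5 CPM filter, 0.15 with the replicate block and 0.08 with upper quartile scaling. With each library left out in turn, the range was -0.24 to 0.04 for Mkl1, -0.40 to 0.01 for Srf, -0.11 to 0.21 for Actn4, -0.28 to 0.05 for Csrp1, -0.58 to 0.88 for Csrp2 and -0.12 to 0.32 for Actb. With 1 library left in a line, its spread was assumed to be that of the other line. Depth limits Myocd, Ppp1r14a and Pgm5, which had at most 11 fragments in a library.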

Other observations

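Single markers of further cell types differed between the lines in both directions. Of 5 markers of PDGFRA-positive interstitial cells, 3 were higher (60%, against 18.8% of all tested genes) and 1 lower (20%, against 21.8%). Their summed level was 634 to 648 CPM in 2xSCS70 and 639 to 686 CPM in 2xSCS2F10. These near sums hide opposite differences, since Cd34 had 298 and 268 CPM in 2xSCS70, against 98.2 and 49.6 CPM in 2xSCS2F10 (edgeR adjusted p = 0.012), and Cxadr had 235 and 236 CPM in 2xSCS70, against 559 and 530 CPM in 2xSCS2F10 (0.00261). Adamtsl3 had 82.1 and 92.0 CPM in 2xSCS70, against 0.0514 and 0.21 CPM in 2xSCS2F10 (0.00049), and Ly6a had 4.10 and 5.18 CPM in 2xSCS70, against 0.411 and 0.105 CPM in 2xSCS2F10 (0.00681). Markers of interstitial cells of Cajal summed to 42.7 to 44.9 CPM in 2xSCS70 and 32.3 to 50.5 CPM in 2xSCS2F10, while Ano1 was 9.96-fold lower, at 2.29 and 2.55 CPM in 2xSCS70, against 29.8 and 18.4 CPM in 2xSCS2F10 (edgeR adjusted p = 0.00219). Gjc1 of the same list was 2.38-fold higher, at 42 and 39.3 CPM in 2xSCS70, against 20.6 and 13.5 CPM in 2xSCS2F10 (edgeR adjusted p = 0.0136). Cdh5 had 0.363 and 0.575 CPM in 2xSCS70 and was at 0 in both 2xSCS2F10 libraries. Tek, also an endothelial marker, was 6.13-fold lower, at 0.145 and 0.164 CPM in 2xSCS70, against 0.873 and 1.05 CPM in 2xSCS2F10 (edgeR adjusted p = 0.00939). Endothelial markers summed to 4.15 to 4.86 CPM in 2xSCS70 and 5.80 to 9.34 CPM in 2xSCS2F10, and immune markers to 3.88 to 5.22 CPM in 2xSCS70 and 3.60 to 5.14 CPM in 2xSCS2F10. Enteric glial markers summed to 1.52 to 1.78 CPM in 2xSCS70 and 0.997 to 1.18 CPM in 2xSCS2F10. Enteric neuronal markers, none of which was abundant enough to be tested, summed to 0.109 to 0.247 CPM in 2xSCS70 and 0.472 to 0.565 CPM in 2xSCS2F10.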
